A study of Mus musculus with 24 samples.

Results

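A small set of array probes was called well above background on the arrays of New Zealand Obese (NZO) mice in every tissue measured. The same probes were rarely so called on 11 of the 12 arrays of C57BL/6 (B6) mice. A probe was a member if it was well above background on at least 11 of the 12 NZO arrays and on at most 1 of 11 B6 arrays. The B6 muscle array numbered 011 was left out of the rule, as were control spots and the 2 probes of Ifi202b. The rule found 32 member probes under 28 names, among 55681 probes under 34947 names (0.0575% of probes). The members were thus chosen by the detection calls of these same arrays. The rule is a strain contrast, so the differences between NZO and B6 in the members are given below as descriptions, and no member is tested singly for strain. Counts and ranges over B6 arrays refer to those 11 arrays wherever array 011 is not named; its values have a paragraph of their own.

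The mice were males of the strains NZO/HiBomDife, an inbred line that becomes obese and diabetic, and C57BL/6, all fed a diet with 45% fat and sampled at 6 weeks. Skeletal muscle, brown fat (BAT) and white fat of the gonadal depot (gWAT) of each strain were hybridised to 4 arrays each, 24 in all, 1 colour per array. All groups shared the diet, so no group shows either strain without it. The labels do not say that arrays of a group came from separate animals, so a p-value below measures the spread between these arrays, which may be technical, and arrays of different tissues may share animals.

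Inbred mouse strains differ in which genes they carry and transcribe. Families of immune genes, olfactory receptor genes, histone genes and long intergenic non-coding RNAs (lincRNAs) vary in copy number and sequence between strains, and a gene can be silent in 1 strain through a lesion in its promoter. H2-Ea is a textbook case: C57BL/6 mice, of the H2b haplotype, lack expression of this alpha chain of the MHC class II molecule E, which presents peptides to helper T cells, and the reference annotation names it a pseudogene, H2-Ea-ps. Array probes were designed on the reference genome, which is that of C57BL/6.

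The sequences below are the 60-base probes of member names in which neighbouring probes can be compared, followed by 3 members of named coding genes. They are given 5′ to 3′ in lower case, with positions on mm9 as the files give them. The probes of a lincRNA on chromosome 7 lay on the minus strand, and the middle probe of the 3, at chr7:140081385-140081444, gave signal in both strains, while its neighbours at chr7:140081325-140081384 and chr7:140081553-140081612 were members. The first of those neighbours directly adjoins the middle probe.
chr7 lincRNA, member A_30_P01033597: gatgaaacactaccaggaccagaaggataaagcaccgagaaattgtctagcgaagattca
chr7 lincRNA, other probe A_30_P01029029: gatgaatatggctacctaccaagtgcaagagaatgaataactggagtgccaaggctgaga
chr7 lincRNA, member A_30_P01027417: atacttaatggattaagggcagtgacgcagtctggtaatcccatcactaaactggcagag
On chromosome 4, minus strand, the member at chr4:35111553-35111612 was followed directly by a probe at chr4:35111493-35111552 that gave no signal in either strain.
chr4 lincRNA, member A_30_P01027466: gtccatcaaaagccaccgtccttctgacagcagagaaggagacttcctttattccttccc
chr4 lincRNA, other probe A_30_P01028293: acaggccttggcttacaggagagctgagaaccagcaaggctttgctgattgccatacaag
On chromosome 1, plus strand, the member at chr1:23339677-23339736 lay between probes at chr1:23339611-23339670 and chr1:23339815-23339874 that gave signal in both strains.
chr1 lincRNA, other probe A_30_P01028574: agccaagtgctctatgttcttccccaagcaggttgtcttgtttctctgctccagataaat
chr1 lincRNA, member A_30_P01030475: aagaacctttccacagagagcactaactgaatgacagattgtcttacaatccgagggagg
chr1 lincRNA, other probe A_30_P01019464: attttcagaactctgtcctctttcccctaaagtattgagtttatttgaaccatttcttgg
H2-Ea-ps was probed at chr17:34481469-34481528, Npy across exons within chr6:49773743-49777505, and Olfr224 on chromosome 11.
H2-Ea-ps, member: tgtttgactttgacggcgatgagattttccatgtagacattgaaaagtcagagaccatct
Npy, member: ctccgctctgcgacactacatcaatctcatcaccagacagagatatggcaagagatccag
Olfr224, member: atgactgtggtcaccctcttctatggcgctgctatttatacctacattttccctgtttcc

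The level of a probe is the log2 of its processed signal minus the 75th percentile of its array, so a level of 0 is the signal that 25 of 100 probes exceed. The 75th percentile lay between a signal of 119 and 311 on the 24 arrays, and 51.9% to 59.3% of probes were well above background. Marker genes matched the labels: summed over 5 adipocyte genes the level was 10.7 to 11.3 on NZO gWAT arrays and 10.68 to 10.95 on B6 gWAT arrays, and over 5 muscle genes 12.8 to 12.9 on NZO muscle and 13.0 to 13.2 on the other 3 B6 muscle arrays. In gWAT the sums of markers of other cell types also differed by strain: the 4 brown fat markers summed to 5.33 to 5.98 in NZO and 0.36 to 1.69 in B6, the 5 macrophage markers to 7.41 to 7.63 and 5.84 to 6.16, and the 5 B cell markers to 2.06 to 4.53 and 0.66 to 1.04. The brown fat marker Elovl3 overlapped between the strains in gWAT, at -4.26 to -1.68 in NZO and -6.59 to -1.90 in B6. In BAT it was lower in NZO, at -5.28 to 1.09 against 2.85 to 4.10. In BAT the macrophage sums were 4.24 to 4.52 in NZO and 4.04 to 4.20 in B6, and the B cell sums 1.69 to 2.05 and 0.93 to 1.13. In muscle the macrophage sums were 4.81 to 5.57 in NZO and 4.73 to 4.78 on the other 3 B6 arrays, and the B cell sums 0.80 to 1.04 and -0.0053 to 0.16. The B cell marker Cd22 read 1.09 to 1.51 in NZO BAT and -0.89 to -0.38 in B6 BAT. B6 BAT held muscle transcripts, with a summed level of 7.44 to 9.49 against -0.38 to 2.58 in NZO BAT. Array 011 of B6 muscle stood apart: its 5 muscle markers summed to 12.6, its 5 adipocyte markers to 10.2, against 6.84 to 7.20 on the other 3 B6 muscle arrays, and its 5 macrophage markers to 6.23, against 4.73 to 4.78.

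Of the 32 members, 22 were called well above background by each of the 12 NZO arrays, and 10 by 11 of them. On the 11 B6 arrays 23 members were detected on none and 9 on 1. In 15 members both held, 12 NZO arrays and no B6 array. The NZO arrays detected 30 to 32 members each in gWAT, 29 to 32 in BAT and 29 to 32 in muscle. The B6 arrays detected 0 to 1 each in gWAT, 0 to 1 in BAT and 0 to 3 on the 3 muscle arrays of the rule. The lowest count of any NZO array was thus far above the highest of those 11 B6 arrays, as the rule requires. In 23 members the lowest NZO level was above the highest B6 level, and in the other 9 the ranges overlapped. The rule itself favours such separation, and the share of all probes separated in this way was not counted. Mean levels over the NZO arrays ran from -3.71 to 3.37 with a median of -2.28, 29 of 32 below 0, and no member spot was saturated. Most members were therefore dim probes.

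The edge of the rule is not a gap. Just outside it lay 24 probes, 11 detected on 10 NZO arrays with at most 1 B6 array, and 13 detected on at least 11 NZO arrays with 2 B6 arrays. Among the latter were the histone gene Hist2h2bb, with a mean NZO level of 0.11 and a mean B6 level of -5.56, and Methig1, with -1.13 and -4.73. Just inside it, Chil1 was detected on 11 NZO arrays and 1 B6 array, and its lowest NZO level exceeded its highest B6 level by 0.26. The opposite rule, at least 10 of 11 B6 arrays and at most 1 of 12 NZO arrays, found 66 probes under 59 names.

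Of 32 members, 9 probes (28.1%) were annotated as non-coding, against 32.5% of all probes on the array, and 10 (31.3%) were other named genes, against 45.7%. Predicted genes and RIKEN clones made up 5 (15.6% against 7.44%), probes with no gene name 5 (15.6% against 9.72%), olfactory receptors 2 (6.25% against 2.69%), and MHC genes 1 (3.1% against 0.097%). A gene of RefSeq GRCm38.p6 was matched to 16 member probes under 14 names. The files gave no genome position for 2 members, LOC630751 and the unnamed probe A_55_P2050722 (6.25%), against 0.929% of all probes and 0 of the 66 probes of the opposite rule. The median GC content of the members was 45.0%, with a range of 35% to 50%, and that of all probes 43.3% (SD 7.24).

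The immune members were LOC630751 and H2-Ea-ps. LOC630751 is described in the files as similar to interferon-inducible GTPase 1, a family that defends cells against intracellular microbes. Values of single arrays are given in the order 003, 007, 009 and 012 for gWAT and 003, 007, 009 and 011 for BAT and muscle. The levels of LOC630751 were 1.14, 2.36, 1.67 and 2.53 in NZO gWAT, 1.84, 3.25, 1.67 and 1.58 in NZO BAT, and 6.76, 5.77, 5.99 and 5.90 in NZO muscle. On the 11 B6 arrays it lay between -7.11 and -4.09 and was well above background on none. All 12 NZO arrays exceeded each of those 11 by at least 5.22, and the muscle arrays stood above the fat arrays. Set against the dimmest signals called well above background, NZO was at least 108-fold higher in gWAT, at least 74.5-fold in BAT and at least 1082-fold in muscle. Both probes of Iigp1, a named gene of that family, were detected on 12 NZO and 11 B6 arrays, at 0.24 ± 0.44 (SD, n = 4) in NZO gWAT and 0.34 ± 0.20 in B6 gWAT for the second probe.

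H2-Ea-ps had levels of 0.25, 0.73, 0.86 and 1.1 in NZO gWAT, -2.18, -1.30, -2.15 and -2.39 in NZO BAT, and -1.91, -5.85, -3.72 and -2.58 in NZO muscle, where array 007 was not well above background. B6 levels on the 11 arrays ran from -6.93 to -5.81. White fat was high, muscle low and scattered, and 1 muscle array lay inside the B6 range. In gWAT NZO was at least 47.5-fold higher, and in BAT at least 4.38-fold.

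The other genes of the class II pathway, 11 in all, were not detected only in NZO. By limma's test with Benjamini-Hochberg adjustment, 0 of the 9 tested in gWAT were higher in NZO and 1 was lower, where 31.8% of all probes were called. In BAT 0 of 9 were higher and 3 lower, where 15.2% of all probes were called, and in muscle 0 of 8 were higher and 3 lower, where 10.9% were called. At an unadjusted p under 0.05, 2, 5 and 7 of them differed. H2-Ab1, the beta chain of the class II molecule A, read lower in NZO in all 3 tissues. By limma the difference was -1.15 (SE 0.24, adjusted p = 0.00840) in gWAT, -2.03 (SE 0.15, adjusted p = 6.09e-05) in BAT and -2.36 (SE 0.23, adjusted p = 0.000900) in muscle. For each of these genes only the probe with the highest mean was read. Sequence differences between the strains under the probes were not examined. H2-Eb1, the beta chain that pairs with the E alpha chain, was at 7.07 ± 0.37 in NZO gWAT and 6.58 ± 0.16 in B6 gWAT (difference 0.49, SE 0.19, adjusted p = 0.0867). With arrays centred on their median, 5 of these genes were called higher in NZO gWAT. The macrophage and B cell markers, whose sums in gWAT were higher on every NZO array than on any B6 array, belong to cells that carry class II molecules, and their part in these values was not tested.

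Among the other named genes, Mrap2, Npy and Chil1 encode proteins with known roles in energy balance or inflammation. Mrap2 is an accessory protein of melanocortin receptors. Its first probe, at chr9:87078820-87078879, read 0.64, 1.29, 0.94 and 0.22 in NZO gWAT, -1.37, -1.55, -1.56 and -1.77 in BAT, and -1.09, -1.96, -2.01 and -2.92 in muscle, against -6.91 to -5.82 on the 11 B6 arrays. Its second probe gave -0.85 ± 0.41 in gWAT, -3.55 ± 0.44 in BAT and -3.07 ± 0.75 in muscle (SD, n = 4 each). Neither probe was well above background on the 11 B6 arrays of the rule, while array 011 of B6 muscle detected both, and NZO gWAT was at least 48.8-fold and at least 15.8-fold higher by the first and second probe. Mrap, which encodes the related accessory protein, was detected on 12 NZO and 11 B6 arrays, at 6.88 ± 0.34 in NZO gWAT and 6.50 ± 0.26 in B6 gWAT.

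Npy, which encodes the appetite-stimulating neuropeptide Y, was dim throughout NZO, at -2.90 ± 0.29 in gWAT, -3.07 ± 0.28 in BAT and -3.82 ± 0.63 in muscle (SD, n = 4 each). It was detected on 11 NZO arrays and on none of the 11 B6 arrays of the rule, though on array 011, with NZO gWAT at least 3.82-fold higher. Chil1, named Chi3l1 in the files, encodes a chitinase-like protein of inflamed tissue. It read -0.82, -0.39, -0.42 and -0.60 in NZO gWAT, -3.57 on average in BAT (SD 0.14) and -2.53 in muscle (SD 0.29). The gWAT arrays of NZO were clearly separate from all 11 B6 arrays, of which the highest read -4.02.

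Kcnj10, an inwardly rectifying potassium channel gene on chromosome 1, read -3.07 ± 0.67 in gWAT, -3.08 ± 0.30 in BAT and -2.73 ± 0.16 in muscle (SD, n = 4 each), with none of the 11 B6 arrays of the rule well above background, and array 011 at -3.81 and detected. Mmel1, a membrane metallo-endopeptidase, read -2.48 ± 0.23, -2.02 ± 0.18 and -2.60 ± 0.44 in the same order and was detected on 1 of those 11 B6 arrays and on array 011.

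Tescl, named for its likeness to the calcium-binding protein tescalcin, had 2 member probes, with starts 107 bases apart, on chromosome 7. The first read -1.73, -0.63, -1.23 and -1.50 in NZO gWAT, 0.72, 1.12, 0.80 and 0.92 in NZO BAT, and -1.53, -0.70, -0.74 and -0.74 in NZO muscle. The second gave means of -2.02, 0.15 and -1.70. BAT was the high tissue by both probes, and the highest level of the first probe on the 11 B6 arrays of the rule, -3.39, was in BAT, on array 009. Array 011 of B6 muscle read -3.17. Tesc, the gene of tescalcin itself, was detected on 12 NZO and 11 B6 arrays, at 2.40 ± 0.35 in NZO BAT and 2.01 ± 0.13 in B6 BAT. In muscle Tesc read 1.28 ± 0.19 in NZO and -0.36 ± 0.18 in B6, and in gWAT -0.33 ± 0.30 and 0.30 ± 0.76.

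The olfactory receptor genes Olfr224 and Olfr620 were also highest in BAT. Olfr224 read 0.79, 0.46, 0.56 and 0.66 in NZO BAT, and Olfr620 read 0.26, -0.44, 0.15 and -0.91. In white fat of NZO their means were -0.93 ± 0.30 and -2.67 ± 0.47, and in NZO muscle -1.46 ± 0.26 and -3.49 ± 0.41 (SD, n = 4 each). On the 11 B6 arrays of the rule Olfr224 was detected once and Olfr620 never, and array 011 detected both. NZO BAT was at least 26.7-fold higher for Olfr224 and at least 14.9-fold for Olfr620.

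The members without a described protein ran from bright to dim. NAP019752-001, an array transcript on chromosome 12, read 0.21 ± 0.14 in NZO gWAT, -0.09 ± 0.19 in BAT and 0.29 ± 0.20 in muscle (SD, n = 4 each), against -6.49 to -4.32 on the 11 B6 arrays. The first member of the chromosome 3 lincRNA read -0.32 ± 0.67, 0.02 ± 0.26 and 0.43 ± 0.06 in the same order, and NAP060966-1 on chromosome 2 read -1.30 ± 0.10, -0.72 ± 0.37 and -0.81 ± 0.04. The tissue means of each of these 3 lay within 1 log2 unit, but limma's fit of the NZO tissues, given below, still called differences. NAP060966-1 was called lower in gWAT than in BAT (-0.58) and than in muscle (-0.49). The lincRNA member was called lower in gWAT than in muscle (-0.75), and NAP019752-001 lower in BAT than in muscle (-0.39). A_55_P2095227 on chromosome 14 read -2.10 ± 0.31, -3.49 ± 0.78 and -1.82 ± 0.61. AK167004 read -3.70 ± 0.36, -3.40 ± 0.28 and -1.73 ± 0.30, and BC049715 -3.88 ± 0.47, -2.12 ± 0.33 and -3.92 ± 0.17. The RIKEN clone 1700001P01Rik read -3.36 ± 0.27, -2.61 ± 0.23 and -3.10 ± 0.29, and 1700061I17Rik -3.33 ± 0.41, -3.37 ± 0.53 and -2.48 ± 0.26. At the dim end, Gm3716 read -3.87 ± 0.38, -3.19 ± 0.42 and -3.76 ± 0.37, and the lincRNA of chromosome 1 -3.46 ± 0.76, -2.82 ± 0.32 and -3.73 ± 0.97. Each of these dim probes was detected on 11 or 12 NZO arrays.

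The tissues of NZO were compared with each other, since the rule uses no difference between tissues. All 32 members passed the filter of that fit, detection on all 4 arrays of at least 1 NZO tissue. That is part of the choice itself, as a member is detected on at least 11 NZO arrays, and 31679 probes were tested. Limma called 19 members between gWAT and BAT, 7 higher and 12 lower in gWAT, where 61.1% of all probes were called, 24.2% higher and 36.8% lower. Between gWAT and muscle it called 19, 10 higher and 9 lower in gWAT, where 65.1% of all probes were called, 31.3% higher and 33.8% lower. Between BAT and muscle it called 21, 13 higher and 8 lower in BAT, where 58.7% were called, 33.5% higher and 25.2% lower. Of all probes called, 39.7% were higher in gWAT against BAT and 48.0% against muscle, and 66.1% and 66.9% with arrays centred on their median. The shares of members called, 59.4%, 59.4% and 65.6%, are close to those of all probes. Median differences of the members were -0.32, -0.15 and 0.46, and those of all tested probes -0.25, -0.08 and 0.14. In bulk tissue, fewer cells of a type and less RNA per cell cannot be told apart.

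Members higher in white fat than in both other tissues were H2-Ea-ps, Chil1, Mrap2, Gm5589 and the unmapped probe A_55_P2050722. By limma with Benjamini-Hochberg adjustment, Chil1 was higher in gWAT than in BAT by 3.02 (SE 0.16, adjusted p = 5.20e-08) and than in muscle by 1.97 (SE 0.16, adjusted p = 6.21e-07). H2-Ea-ps was higher in gWAT than in BAT by 2.74 (SE 0.67, adjusted p = 0.0042) and than in muscle by 4.25 (SE 0.67, adjusted p = 0.000149). The first Mrap2 probe was higher in gWAT by 2.34 (SE 0.33, adjusted p = 9.92e-05) against BAT and by 2.77 (SE 0.33, adjusted p = 1.63e-05) against muscle, and the second by 2.70 and 2.22. A_55_P2050722 was higher by 1.29 and 2.05. In each of these 10 contrasts the 4 gWAT arrays lay above all 4 of the other tissue. The share of all probes separated in this way was not counted. Gm5589 was higher in gWAT by 0.87 against BAT (adjusted p = 0.00724) and 1.29 against muscle (adjusted p = 0.000440), and the first of these calls passed under 18 of 21 alternatives (highest adjusted p = 0.0804, with slide as a fixed block). In NZO gWAT the 5 macrophage markers summed to 7.41 to 7.63, against 4.24 to 4.52 in BAT and 4.81 to 5.57 in muscle, and the 5 B cell markers to 2.06 to 4.53, against 1.69 to 2.05 and 0.80 to 1.04. The B cell sums of gWAT and BAT thus nearly met. The B cell marker Cd22 went the other way, at 0.27 to 0.93 in NZO gWAT and 1.09 to 1.51 in NZO BAT. All 5 macrophage markers were detected on every NZO gWAT array, and the B cell marker Ms4a1 on none of the NZO muscle arrays. Their part in the difference of these members was not tested.

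Members higher in brown fat than in both other tissues were Tescl, both olfactory receptors, the lincRNAs of chromosomes 18 and 7, BC049715, 1700001P01Rik and the unnamed transcript ENSMUST00000177565. By limma with Benjamini-Hochberg adjustment, the lincRNA of chromosome 18 was higher in BAT than in muscle by 3.78 (SE 0.41, adjusted p = 8.92e-06) and lower in gWAT than in BAT by -2.38 (SE 0.41, adjusted p = 0.000439). Olfr620 differed by 3.26 (SE 0.31, adjusted p = 2.91e-06) between BAT and muscle and by -2.44 (SE 0.31, adjusted p = 4.34e-05) between gWAT and BAT, and Olfr224 by 2.07 and -1.54. The 2 Tescl probes gave the same size of change, 1.82 and 1.84 between BAT and muscle and -2.16 each between gWAT and BAT. The 2 member probes of the chromosome 7 lincRNA gave 1.13 and 1.28, and -1.44 and -1.28. ENSMUST00000177565 read 0.28, -0.69, -0.54 and -1.92 in NZO BAT and -3.71 ± 0.60 in NZO gWAT (difference -2.99, SE 0.43, adjusted p = 0.000113). The call of 1700001P01Rik between BAT and muscle, 0.49 (SE 0.18, adjusted p = 0.0389), passed under 8 of 21 alternatives (highest adjusted p = 0.157). Leaving out any 1 of 6 arrays also ended it (adjusted p = 0.0570 to 0.116): BAT 003, 007 or 009, or muscle 003, 007 or 011. Its call between gWAT and BAT, -0.75 (adjusted p = 0.00433), passed under 19 of 21, and ended with arrays centred on their median (adjusted p = 0.282). The 4 brown fat markers summed to 11.2 to 11.4 in NZO BAT and to 5.33 to 5.98 in NZO gWAT. Elovl3, one of them, overlapped between these tissues, at -5.28 to 1.09 in NZO BAT and -4.26 to -1.68 in NZO gWAT. The part of the brown fat markers in these differences was not tested.

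Members higher in muscle than in both other tissues were LOC630751, the lincRNA of chromosome 4, AK167004, Prm1 and 1700061I17Rik. By limma with Benjamini-Hochberg adjustment, LOC630751 was lower in gWAT than in muscle by -4.18 (SE 0.41, adjusted p = 2.99e-06) and in BAT by -4.02 (SE 0.41, adjusted p = 5.16e-06), while gWAT and BAT differed by -0.16 (SE 0.41, adjusted p = 0.744). The lincRNA of chromosome 4 read 0.06, 0.28, -0.18 and 0.97 in NZO muscle. It was lower in gWAT than in muscle by -2.16 (SE 0.40, adjusted p = 0.000543) and lower in BAT than in muscle by -1.79 (adjusted p = 0.00233). The BAT call ended with slide as a fixed block (adjusted p = 0.0751). AK167004 differed from muscle by -1.97 in gWAT and -1.67 in BAT, and Prm1 by -1.61 and -1.52. 1700061I17Rik differed from muscle by -0.85 in gWAT (adjusted p = 0.0167) and by -0.90 in BAT (adjusted p = 0.0143). The first call passed under 17 of 21 alternatives (highest adjusted p = 0.240, with arrays centred on their median) and ended without gWAT array 003 (adjusted p = 0.0515). The second passed under 19 of 21 (highest adjusted p = 0.374, with normexp). Between muscle and the fat tissues, Kcnj10 and Clec16a did not pass, with differences of -0.34 (SE 0.28, adjusted p = 0.305) and -0.19 (SE 0.35, adjusted p = 0.649) between gWAT and muscle. Without array 012 of NZO gWAT, which read -2.08 against -3.48 to -3.36 on the others, Kcnj10 was lower in gWAT by -0.68 (adjusted p = 0.00532).

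Pairs of NZO tissues shared a slide on 4 occasions, 1 for gWAT and BAT, 2 for gWAT and muscle, and 1 for BAT and muscle. Within those slides the median difference of the members was -0.16 between gWAT and BAT, -0.10 and -0.46 between gWAT and muscle, and 0.49 between BAT and muscle. Each called member had the sign of the fit over all arrays there, but those arrays are part of that fit, so the signs are no independent check.

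The strain contrast was also read by choosing probes in 2 tissues and describing them in the third. Probes detected on at least 7 of the 8 NZO arrays of 2 tissues and on none of their B6 arrays were read in the remaining tissue with limma. Chosen outside gWAT, 58 probes gave 35 higher in NZO gWAT (60.3%), where 15.5% of all tested probes were called higher. Outside BAT, 38 gave 25 (65.8% against 7.48%), and outside muscle 46 gave 25 (54.3% against 4.41%). In the tissue that did not choose them, 21 of 58, 21 of 38 and 19 of 46 were detected on every array of NZO and none of B6, and 3, 7 and 9 were detected on no NZO array. The percentages of chosen probes count every chosen probe, tested or not, while those set beside them are shares of tested probes only. Of the chosen probes 26, 25 and 27 are members, whose rule used these same arrays, and a probe detected on NZO arrays alone could pass the filter of the fit only where it is high. These counts are therefore a description and no support for the choice, and the tissues may come from the same animals. The sums of the macrophage and B cell markers in all 3 tissues, given above, moved with strain. So did the sums of the brown fat markers in gWAT and of the muscle markers in BAT. Their part in these counts was not tested.

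The B6 muscle array 011 is a B6 array that the rule did not use. It detected 26 of 32 members (81.3%), where it detected 58.3% of all probes, and the other 3 B6 muscle arrays detected 0 to 3 members. The rule chose members by low detection on those 3, and in 23 members the level of array 011 was above all 3. The share of all probes for which it was above them was not counted. H2-Ea-ps read -0.83 on array 011 against -6.16 to -5.81, LOC630751 0.59 against -6.23 to -4.09, the first Mrap2 probe -1.60 against -6.13 to -5.82, and the lincRNA of chromosome 18 -1.11 against -6.27 to -5.71. Over the 26 detected members its level differed from the mean of NZO gWAT by a median of -1.39, from -2.37 to -0.13 (SD over members 0.56). From NZO BAT it differed by a median of -1.20, from -4.06 to 1.32 (SD 1.38), and from NZO muscle by -1.12, from -5.52 to 2.68 (SD 1.53). Over these detected members alone, the spread was smallest against NZO gWAT. The members not detected on array 011 were the lincRNA of chromosome 4, 1700001P01Rik, ENSMUST00000177565, Gm3716, BC049715 and the first probe of the chromosome 7 lincRNA. Their differences from NZO gWAT were, in that order, -4.74, -3.26, -3.00, -1.28, -1.23 and -1.33. The first 3 of these lay outside the range of the detected members. It also detected 57 of the 66 probes of the opposite rule, against 59 to 65 on the other B6 muscle arrays and 0 to 3 on NZO muscle arrays. Its adipocyte and macrophage markers, given above, were also raised, with all 5 of each detected, and their part in these values was not tested.

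Members lay on 14 chromosomes. Chromosome 7 held 5 probes under 3 names (15.6% of members against 7.20% of all probes). Chromosomes 1, 3 and 4 held 3 probes each (9.4% of members each, against 6.11%, 5.06% and 6.15% of all probes). Only 1 pair of members with different names lay within 1 Mb, Clec16a and Prm1 on chromosome 16, 161 kb apart. Clec16a encodes an endosomal protein of autophagy and Prm1 the protamine that packs sperm DNA. The Clec16a member, in chr16:10630874-10635377, read -3.66 ± 0.86 in NZO gWAT, -4.01 ± 0.25 in BAT and -3.47 ± 0.33 in muscle, and Prm1, at chr16:10796450-10796509, read -3.12 ± 0.84, -3.03 ± 0.46 and -1.51 ± 0.42 (SD, n = 4 each). Between them lay probes detected in both strains: Socs1, an inhibitor of cytokine signalling, a second Clec16a probe and Prm2, a neighbouring protamine gene, each on 12 NZO and 11 B6 arrays. Others there were detected on few arrays of either strain. A further Clec16a probe was detected on 0 NZO arrays and 1 B6 array, and Tnp2 on 3 and 2. A probe of Prm3 was detected on 4 NZO and 3 B6 arrays, and another on 0 and 3. The interval as a whole was therefore not read on NZO arrays only. The Clec16a probe at chr16:10744705-10744764 read 0.86 ± 0.23 in NZO gWAT and -0.96 ± 0.04 in B6 gWAT, and Prm2 -2.52 ± 0.21 and -2.51 ± 0.61.

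Kcnj10 lay 1.59 Mb from Ifi202b, the interferon-activated gene of chromosome 1 kept out of the rule, whose 2 probes were detected on 12 NZO arrays and none of the 11 B6 arrays of the rule. Each of the 30 members with a position had at least 1 probe within 250 kb that was detected in both strains. The share of other probes with such a neighbour was not counted, so this is a description only. Other NZO-leaning probes nearby, chosen after their values were seen, were Hist2h2bb beside the lincRNA of chromosome 3 (12 NZO and 2 B6 arrays), and probes of 2 further lincRNAs beside that of chromosome 1, detected on 10, 10 and 12 NZO arrays and on 3, 1 and 3 B6 arrays.

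Other probes of the same name were available for part of the members. Of the 28 names, 16 had a single probe and 12 had several, and in 4 names 2 probes were members: Tescl, Mrap2 and the lincRNAs of chromosomes 3 and 7. In 11 names there were 20 further probes that were not members. Of these, 4 were detected mostly in NZO, 5 in both strains, 6 in neither and 5 in a mixed pattern.

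For the lincRNA of chromosome 3 and for Mmel1, the other probes had a pattern like that of the member. Beside its 2 members, the chromosome 3 lincRNA had 3 probes, each detected on 12 NZO arrays, on 2, 2 and 4 B6 arrays. Its first member shares 42 bases with the Hist2h2bb probe on the same strand, so the lincRNA and the histone gene were read by overlapping sequence. In gWAT, Hist2h2bb read -0.24 ± 0.70 for NZO and -5.91 ± 1.61 for B6. The other Mmel1 probe, shifted by 7 bases and sharing 53 of 60, was detected on 12 NZO and 2 B6 arrays, so it is nearly the same measurement. The other BC049715 probe, sharing 39 bases, was detected on 8 NZO arrays and no B6 array. The third Mrap2 probe, 476 bases from the second, was detected on 4 NZO arrays and 1 B6 array, with a level of -2.63 ± 0.39 in NZO gWAT and -6.19 ± 1.65 in B6 gWAT.

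Other probes disagreed in the lincRNAs printed above. The middle probe of the chromosome 7 lincRNA, adjoining 1 member, read 0.26 ± 0.15 in NZO gWAT and -0.24 ± 0.26 in B6 gWAT, and was detected on 12 NZO and 11 B6 arrays. The members at its sides read -2.48 ± 0.18 and -3.54 ± 0.21 in NZO gWAT and were detected on none of the 11 B6 arrays of the rule; array 011 detected the first of them, at -3.64. For the lincRNA of chromosome 4, the adjoining probe was at -6.46 ± 0.36 in NZO gWAT and -6.56 ± 0.51 in B6 gWAT, detected on no array, and the other 2 probes were detected on 0 and 3 NZO arrays and on 0 and 6 B6 arrays. For chromosome 1 the probes at the sides of the member were detected on 12 NZO arrays each and on 9 and 11 B6 arrays. For the lincRNA of chromosome 18, 3 probes within 545 bases of the member were detected on 0, 1 and 5 NZO arrays. AK167004 had a probe 136 bases away detected on 12 NZO and 11 B6 arrays, at -1.61 ± 0.45 in NZO gWAT and -3.43 ± 0.33 in B6 gWAT. For 1700061I17Rik the other probe, 85 bases away, was detected on no array.

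Shared sequence also bears on what a member measures. The Gm5589 member shares a run of 31 bases with 3 unnamed probes placed on chromosomes 3, 4 and 14, which were detected on 11 to 12 NZO arrays and 9 to 11 B6 arrays. Gm5589 read -1.13 ± 0.40 in NZO gWAT, -2.0 ± 0.25 in BAT and -2.42 ± 0.38 in muscle (SD, n = 4 each), and the 3 related probes read -1.17, -0.82 and -1.45 in NZO gWAT and -3.83, -3.28 and -3.90 in B6 gWAT. Signal of such a probe cannot be given to 1 copy. On the opposite strand, the first member of the chromosome 3 lincRNA overlaps a probe by 58 bases that was detected on 0 NZO arrays and 1 B6 array, and the chromosome 4 member overlaps one by 38 bases that was detected on 3 and 2.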

How the data were processed

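Gene expression was measured on 24 one-colour Agilent arrays. The deposited files hold scanner output, and the authors' processed signal intensity, background-subtracted, was used; per the file headers it was made with Agilent Feature Extraction 11.0.1.1 on a design placed on mm9, while the submitters' processing notes name version 9.1. Detection calls (well above background) and mean and background intensities are from the same deposited files. Spots of a probe were averaged, and log2 signal was centred on the 75th percentile of each array. A probe with several spots counted as detected where more than 50% of its spots were. Limma 3.58.1 in R 4.3.3 (lmFit, eBayes) was fitted across all probes detected on all 4 arrays of at least 1 group compared, with Benjamini-Hochberg adjustment and a threshold of 0.05. A bound (at least N-fold) sets the NZO mean against the higher of the dimmest detected signal and the probe's own level on each B6 array. Summed marker levels are log2 of summed scaled signals. Shared sequence means a run of at least 30 bases.

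The members and lists were chosen with earlier results of these data known. The named members were those with a gene symbol and the 10 highest NZO means, the 4 largest calls each way per tissue comparison, members of a cluster, those with other probes, and up to 4 of each gene type; all members were then described. Related genes (Iigp1, Mrap, Tesc, Prm2, Socs1, Hist2h2bb) were added after their values were seen. The fit was tested on simulated data. The number of arrays limits the precision. Alternatives were normexp background correction, quantile and median centring, no filter, all groups in 1 fit, replicate number or slide as a block, other detection rules and leaving out each array. Replicate numbers recur across tissues. Deviations of same-numbered NZO arrays of different tissues correlated at -0.24 to 0.31 (median 0.05), and those of other pairs at -0.43 to 0.36 (median -0.0036). These overlapping ranges cannot show whether same-numbered arrays share an animal, so the main fit used no pairing.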

Additional observations from a re-analysis of the deposited data

Results flagged for a closer look

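The B6 muscle array 011, which no comparison of the report uses, detected 26 of the 32 members, against 0 to 3 on the other 3 B6 muscle arrays. On the count of members detected, array 009 of B6 gWAT stood apart with 0 against 1 on the others, and array 009 of NZO gWAT with 30 against 32.

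In 7 cases a single array lay far from the other 3 of its group in the level of a member. Tescl, first probe, read -1.53 on NZO muscle array 003 against -0.74 to -0.70. LOC630751 read 3.25 on NZO BAT array 007 against 1.58 to 1.84. Kcnj10 read -2.08 on NZO gWAT array 012 against -3.48 to -3.36, and -2.49 on NZO muscle array 007 against -2.82 to -2.80. AK167004 read -2.99 on NZO BAT array 003 against -3.58 to -3.52. On NZO BAT array 011, A_55_P2095227 read -4.66 against -3.20 to -2.98, and NAP060966-1 read -0.17 against -0.94 to -0.85. In all, 10 of 102 groups of values stood out in this way, and chance gives about 1 in 20.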

How the results depend on the processing

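The number of members turned on the detection rule: 15 probes met 12 of 12 NZO and 0 of 11 B6 arrays, and 59 met at least 10 and at most 2. With Agilent's call of a positive and significant signal in place of well above background, 8 probes met the rule. Only 3 of these 8 were among the 32 members, so most members did not meet the rule under that call. The choice of members thus holds for the call well above background. Leaving out 1 array at a time gave 32 to 37. The cut-off was eased there, so that 10 of 11 NZO arrays sufficed, and all 32 members were kept each time. The number could not fall under that setting, so it is no check of the choice. With normexp, 19 members were called lower in gWAT than in BAT, 16 lower in gWAT than in muscle, 5 lower in BAT than in muscle, and 12 probes higher in NZO muscle among those chosen elsewhere. Members lower in gWAT than in muscle were 5 with quantile normalization, 4 with median centring and 5 with slide as a fixed block, and members lower in BAT than in muscle 5 with that block. With the replicate block, 6 members were higher in gWAT than in muscle. Without the filter on dim probes 29221 probes were called between gWAT and BAT. Median centring gave 5 class II genes higher in NZO gWAT. Median centring moved the median of all probes from -0.25 to 0.19 between gWAT and BAT, with 66.1% of calls higher against 39.7%, and from -0.08 to 0.34 between gWAT and muscle, with 66.9% against 48.0%.

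Of 59 member calls under 21 alternatives each, 1105 of 1239 values kept their side of the threshold, 132 fell short of it, and 2 reversed, both with normexp: the difference between gWAT and muscle of Olfr620, at -0.0090 against 0.82, and of Npy, at -0.072 against 0.92. The cause was not tested. Calls held under all alternatives in 14 of 19 members between gWAT and BAT, 10 of 19 between gWAT and muscle and 12 of 21 between BAT and muscle. Leaving out 1 array gave 7 and 11 to 13 members higher and lower between gWAT and BAT, 8 to 10 and 6 to 9 between gWAT and muscle, and 10 to 13 and 7 to 8 between BAT and muscle, and 34 to 39, 25 to 26 and 21 to 24 higher calls in the tissues not used for choosing. Most members are dim, so their differences rest on signal near background.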
